A study of Mus musculus with 6 samples.

Results

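The cholesterol and lipid synthesis genes described here are 31 genes taken by name, 18 enzymes from acetoacetyl-CoA to cholesterol, 5 regulators of the sterol response, 3 genes of sterol transport and 5 of fatty acid synthesis. All 31 were found among the 49315 Ensembl gene identifiers of each library, through their GENCODE M21 symbols, and all 31 had enough reads to be tested. The samples were 6 untreated lines of mouse embryo fibroblasts (primary connective tissue cells grown from embryos) of the C57BL/6 strain at passage 4, grown in DMEM with 10% FBS. In the SG lines (SG1, SG2 and SG3) both copies of MDMX, the product of Mdm4, carried the knock-in substitutions W201S and W202G, which break its contact with the kinase CK1-alpha. The WT lines (WT3, WT9 and WT11) had wild-type MDMX on both copies. Every line of both genotypes was also p53-null, so the comparison is one between MDMX alleles in cells without p53. Each line was derived from a single embryo, so n = 3 embryos per genotype, and no litter, culture day or sequencing run is given in the labels. The question of the comparison was which transcripts differ when MDMX cannot bind CK1-alpha.

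Animal cells build cholesterol from acetyl-CoA through the mevalonate pathway, squalene and a series of sterol intermediates. Nearly all of these enzymes are transcribed under SREBP-2 (Srebf2), a membrane-bound transcription factor that SCAP carries from the endoplasmic reticulum to the Golgi when sterols are scarce, and that INSIG proteins hold back when sterols are plentiful. SREBP-1 (Srebf1) acts mostly on fatty acid synthesis, and LXR, a nuclear receptor of oxysterols, raises cholesterol export and Srebf1 when sterols accumulate. Fibroblasts in serum take up cholesterol and also make it, so transcripts of these genes are used as a readout of the sterol state of the cell.

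Promoter sequences of 6 members are shown because they hold the letters that the SREBP and LXR parts of this system read, and because members of both kinds are compared below. RefSeq promoters (GRCm38.p6, 250 bases before to 50 after a start) were available for 24 of the 31 members, with 32 starts. The sterol regulatory element was searched as TCACCNCA and the LXR element as GGTTA, any 4 bases and CGGTCA, on both strands. These letters were set with member promoters in view, so their counts are descriptions. The 250 bases before the start are given, with the matched letters in capitals, for Hmgcs1 (chr13:119690101-119690350, plus strand), Cyp51 (chr5:4104698-4104947, minus strand) and Srebf2 (chr15:82147019-82147268, plus strand), which match the sterol element. Abca1 (chr4:53159896-53160145, minus strand), Fasn (chr11:120824548-120824797, minus strand) and the third listed start of Srebf1 (chr11:60210472-60210721, minus strand) match the LXR element in its reverse complement.
Hmgcs1: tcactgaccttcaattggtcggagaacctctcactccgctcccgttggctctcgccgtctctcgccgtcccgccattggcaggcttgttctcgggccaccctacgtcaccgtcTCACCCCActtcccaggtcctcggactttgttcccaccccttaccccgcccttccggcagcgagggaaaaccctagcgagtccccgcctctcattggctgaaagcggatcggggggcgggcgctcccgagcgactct
Cyp51: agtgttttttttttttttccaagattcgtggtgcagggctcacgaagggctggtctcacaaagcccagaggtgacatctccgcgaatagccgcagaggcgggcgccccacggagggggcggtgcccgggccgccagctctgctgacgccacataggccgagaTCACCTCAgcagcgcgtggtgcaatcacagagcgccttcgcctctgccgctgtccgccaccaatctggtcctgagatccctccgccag
Srebf2: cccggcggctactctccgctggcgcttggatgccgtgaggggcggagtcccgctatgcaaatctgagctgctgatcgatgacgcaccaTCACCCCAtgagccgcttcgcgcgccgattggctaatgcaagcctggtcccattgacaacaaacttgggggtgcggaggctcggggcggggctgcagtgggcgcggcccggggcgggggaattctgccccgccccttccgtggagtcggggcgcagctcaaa
Abca1: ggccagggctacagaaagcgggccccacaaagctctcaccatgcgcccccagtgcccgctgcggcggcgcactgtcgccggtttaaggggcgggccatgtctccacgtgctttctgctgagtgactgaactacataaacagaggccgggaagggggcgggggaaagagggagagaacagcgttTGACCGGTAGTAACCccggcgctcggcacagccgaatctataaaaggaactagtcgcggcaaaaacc
Fasn: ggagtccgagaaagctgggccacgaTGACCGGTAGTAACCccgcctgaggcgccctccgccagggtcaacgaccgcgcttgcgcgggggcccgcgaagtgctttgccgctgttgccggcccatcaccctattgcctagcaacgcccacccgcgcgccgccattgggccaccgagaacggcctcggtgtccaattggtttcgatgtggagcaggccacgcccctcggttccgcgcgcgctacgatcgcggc
Srebf1: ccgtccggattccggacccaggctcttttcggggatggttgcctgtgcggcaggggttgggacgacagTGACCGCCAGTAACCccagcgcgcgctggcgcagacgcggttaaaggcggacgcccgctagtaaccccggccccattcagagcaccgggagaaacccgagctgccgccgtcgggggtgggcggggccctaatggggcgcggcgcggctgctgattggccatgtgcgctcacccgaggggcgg
The sterol element letters began 137 bases before the start of Hmgcs1, 88 before that of Cyp51 and 162 before that of Srebf2, and Hsd17b7 also held them. That is 4 of the 32 member promoters, while 4.42% of all 32851 promoters of the same length held them. The LXR letters were in 3 of the 32 member promoters and in 4 of the 32851 promoters (0.0122%). The longer classical sterol element, which adds A before these letters, C at the N and C after them, was in 0 of the 32 member promoters and in 0.0913% of all promoters. The CCAAT box (CCAAT), read by the SREBP partner NF-Y, was in 21 of the 32 member promoters, against 37.4% of all promoters, and the GC box (GGGCGG), read by SP1, was in 25 of the 32, against 35.7%. A match says only that these letters are in the window, and binding was not measured.

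Library totals ran from 54852998 to 64434605 counts in SG lines and from 49317925 to 65457242 counts in WT lines, and the 31 genes took between 0.609% and 0.635% of them in SG lines and between 0.593% and 0.652% in WT lines. All 10 fibroblast markers checked were at 1 CPM (counts per 1000000 of the library, with TMM scaling) or more in every line. Of these, 2 were called lower in SG lines, S100a4 and Thy1. Thy1 averaged 280.0 ± 25.5 CPM over SG lines and 460.2 ± 19.0 CPM over WT lines (SD, n = 3 each). Gm42674, a gene model on the same strand, overlaps 51.7% of the counted length of S100a4, so its count is uncertain. Among markers of adipocytes, Adipoq, Plin1, Cidec and Lep were below 0.1 CPM in every line, and among those of hepatocytes Serpina1a, Cyp2e1 and Hnf4a were. Of the marker lists of other cells, 0 of 6 for hepatocytes, 2 of 6 for epithelial and 1 of 5 for endothelial cells were at 1 CPM or more in every line. The epithelial markers still summed to 49.4 to 82.3 CPM in SG lines and 66.8 to 86.1 CPM in WT lines. The endothelial markers summed to 52.7 to 72.4 CPM in SG lines and 39.2 to 54.1 CPM in WT lines. Xist was at 402 CPM of the library total in SG1 and 343 in WT9, and at 0.562 to 0.71 in the other 4 lines, so each genotype held 1 line with Xist. The Y-linked gene Ddx3y ran the other way, at 0.164 in SG1, 0.122 in WT9 and 93.4 to 98.6 in the other 4 lines. Correlations of log2 CPM between lines were 0.9898 to 0.9937 within a genotype and 0.9865 to 0.9938 between genotypes.

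The pathway was well represented in these fibroblasts, with levels per length over a wide range. Scd2, a stearoyl-CoA desaturase, was the highest at 323 CPM per kilobase of counted exon in SG lines and 311 in WT lines. Hmgcs1, which makes HMG-CoA, came next at 93.1 CPM per kilobase in SG and 95.6 in WT lines, followed by Acly, the enzyme that supplies cytosolic acetyl-CoA, at 87.7 in SG and 87.8 in WT lines. Cyp51, Scd1, Fasn and Srebf2 lay between 62.6 and 69.1 CPM per kilobase as means of both genotypes, and the lines of Cyp51, Scd1 and Fasn overlapped each other in this order. The median of the 31 genes was 21.5 CPM per kilobase, that of Srebf1. Srebf2 was thus the more abundant SREBP transcript per length, and Insig1, at 49.3 CPM per kilobase, the more abundant INSIG transcript, with Insig2 at 10.6. At the low end stood Npc1 (5.99), Tm7sf2 (2.09), a sterol reductase with a homologue of overlapping function, and Abca1 (0.667), the cholesterol exporter. Scd1 and Scd2 are similar genes, both on chromosome 19, that can share reads, so their split is uncertain.

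**Figure D1:**
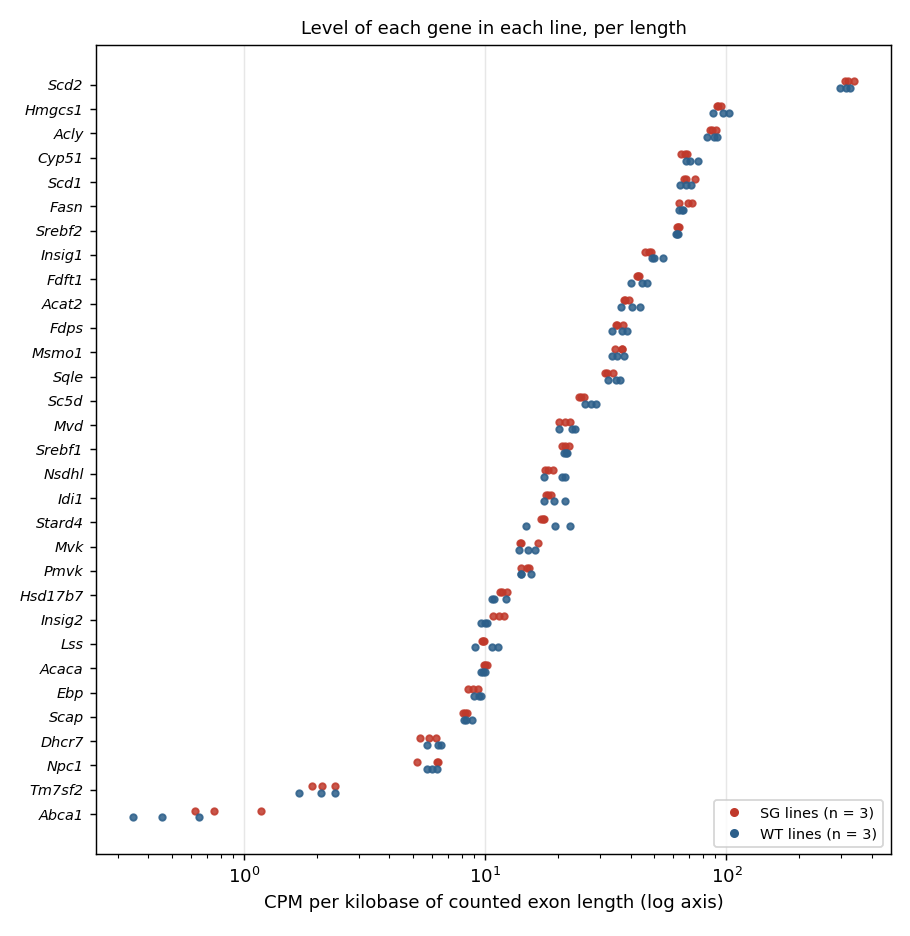
Level of each of the 31 genes in each line, in CPM per kilobase of counted exon length on a log axis, with SG lines in red above WT lines in blue, and genes ordered by their mean. Scd2 is highest and Abca1 lowest, and the lines of most genes lie close together, those of Abca1 and Stard4 being more spread out.

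No gene of the set was called changed between the MDMX genotypes by edgeR. Of the 31 genes, 0 were higher and 0 were lower in SG lines at an adjusted p under 0.05 in edgeR's quasi-likelihood test, against 1.90% of all 16068 genes tested (0.809% higher and 1.10% lower). At an unadjusted p under 0.05 there were 3 (Insig2, Abca1 and Sc5d), against 15.5% of all genes tested. DESeq2 called 1 of the 31, Abca1, against 5.81% of all genes tested. The median log2 fold change of the 31 genes was -0.02, against 0.00 for all genes tested, with 12 above 0 and 19 below. Their median absolute log2 fold change was 0.06, against 0.09 for all genes tested. In 1 gene every SG line lay above every WT line (10.0% of all genes tested) and in 2 every SG line lay below (11.2%).

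Most of these differences were bounded tightly. The 95% interval of the SG over WT ratio lay within 1.2-fold either way for 26 of the 31 genes, against 44.8% of all genes tested, and within 1.5-fold for 30 of 31, against 66.1%. The 5 whose interval reached past 1.2-fold were Insig2, Nsdhl, Tm7sf2, Stard4 and Abca1, and Abca1 alone reached past 1.5-fold. The 31 genes are also more abundant than most, with a median average log2 CPM of 6.76 against 3.92 for all genes tested.

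**Figure D2:**
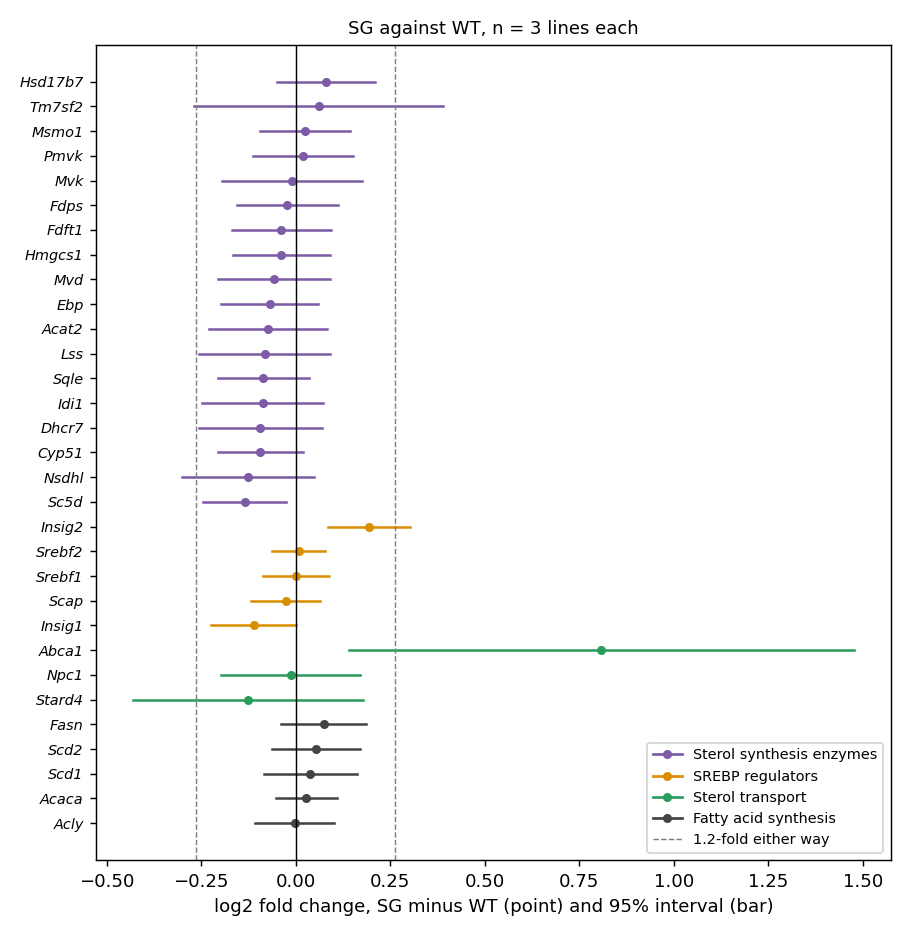
Log2 fold change of SG minus WT for the 31 genes, grouped by role, as points with 95% intervals from the quasi-likelihood fit (n = 3 lines per genotype), with dashed lines at 1.2-fold. Only the intervals of Sc5d, Insig2 and Abca1 exclude 0, and none of the 31 passed the threshold after adjustment.

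Among the regulators, the SREBP transcripts themselves were nearly equal in all lines. Srebf2 was at 313.6, 315.6 and 309.9 CPM in SG1, SG2 and SG3, and at 312.0, 308.4 and 313.8 CPM in WT3, WT9 and WT11. Its lowest and highest lines differed 1.02-fold, and its log2 fold change was 0.01 with a 95% interval of -0.06 to 0.08. Its SD within genotypes was larger than that of only 0.261% of genes tested, a rank not matched for level. Srebf1 was at 120.6, 117.5 and 125.0 CPM in the SG lines, and at 119.0, 121.1 and 122.6 CPM in the WT lines. The genotypes overlapped in it, with a log2 fold change of 0.00 and an interval of -0.09 to 0.09. Gene counts do not separate the starts of Srebf1, so the form that follows the LXR element was not measured on its own. Scap, whose protein escorts SREBP, was at 60.3, 61.3 and 62.7 CPM in SG lines, and at 60.6, 61.9 and 65.2 CPM in WT lines.

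The INSIG pair, which hold SCAP in the endoplasmic reticulum, had estimates on opposite sides of 0. Insig2 (chromosome 1, 121304353 to 121332589) was at 39.4, 41.3 and 37.5 CPM in SG lines, and at 34.8, 35.2 and 33.5 CPM in WT lines. All SG lines were above all WT lines, and the fitted ratio was 1.14 (log2 fold change 0.19, SE 0.05). It missed the threshold over all genes (edgeR adjusted p = 0.089), and its adjusted p ran from 0.0527 to 0.3 over 14 alternative fits. Insig1 (chromosome 5, 28071363 to 28078662), itself a target of SREBP, was at 150.0, 148.2 and 141.7 CPM in SG lines, and at 168.2, 151.8 and 155.3 CPM in WT lines. Every SG line was below every WT line, with a log2 fold change of -0.11 (SE 0.05, edgeR adjusted p = 0.326). The gap between the nearest lines of Insig1, SG1 and WT9, was small beside the spread among WT lines.

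The early enzymes, from acetyl-CoA to farnesyl diphosphate, varied little between genotypes. Hmgcs1 was at 299.3, 295.5 and 308.2 CPM in SG lines, and at 331.0, 285.0 and 311.4 CPM in WT lines. The SG lines all lay inside the range of the WT lines, and the log2 fold change was -0.04 with an interval of -0.17 to 0.09. Acat2 (the thiolase that makes acetoacetyl-CoA), the mevalonate kinases Mvk and Pmvk, the decarboxylase Mvd, the isomerase Idi1 and Fdps, which makes farnesyl diphosphate, had log2 fold changes between -0.09 (Idi1) and 0.02 (Pmvk). Gm43738, an overlapping gene model, shares 26.7% of the counted length of Fdps, so its count is uncertain.

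The enzymes of the squalene and sterol part overlapped between genotypes, except Sc5d. Fdft1, squalene synthase and the committed step toward sterols, was at 122.5, 121.1 and 124.6 CPM in SG lines, and at 134.4, 115.5 and 128.1 CPM in WT lines. Sqle, the squalene epoxidase and a rate-limiting step, was at 174.0, 177.5 and 186.8 CPM in SG lines, and at 200.5, 178.4 and 192.3 CPM in WT lines. Their genotypes overlapped, with log2 fold changes of -0.04 and -0.09, but 26.8% of the counted length of Fdft1 overlaps the antisense gene Ctsb, and a strand setting is not given in the sources used here. Sc5d (chromosome 9, 42251595 to 42264256), the sterol desaturase near the end of the pathway, was at 124.6, 121.1 and 118.9 CPM in SG lines, and at 140.3, 126.0 and 134.0 CPM in WT lines. All SG lines were below all WT lines, SG1 and WT9 by a small gap, and the log2 fold change of -0.13 (SE 0.05, interval -0.24 to -0.03) missed the threshold (edgeR adjusted p = 0.218). The lanosterol synthase Lss, the demethylases and dehydrogenase Cyp51, Msmo1 and Nsdhl, the ketosteroid reductase Hsd17b7, the isomerase Ebp, and the reductases Tm7sf2 and Dhcr7 had log2 fold changes between -0.13 (Nsdhl) and 0.08 (Hsd17b7), with adjusted p of 0.422 to 0.883 and overlapping genotypes in each. Nsdhl and Ebp are on the X chromosome. Tm7sf2, of low level, was the third most variable gene of the set, at 7.34, 6.64 and 8.32 CPM in SG lines, and at 8.28, 5.89 and 7.25 CPM in WT lines. Vps51, a gene on the same strand, overlaps 15.3% of the counted length of Tm7sf2, so its count is uncertain.

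Across the 18 sterol enzymes, 14 log2 fold changes were below 0 and 4 above, with a median of -0.06, and 0 passed in either direction. Of all 16068 genes tested, 7925 were below 0 and 8143 above. The median of all 31 genes, -0.02 with every line, was 0.0034 without WT3 and -0.065 without WT9. It was -0.067 without both lines that hold Xist (SG1 and WT9), and -0.020 with Xist status as a covariate. WT3 was the highest of all 6 lines in 14 of the 18 enzymes, WT9 was the lowest in 11, and WT3 was above WT11 and WT11 above WT9 in 17, Dhcr7 being the exception. Averaged over the 18 enzymes, log2 CPM deviated from the mean of all 6 lines by -0.03 in SG1, -0.06 in SG2 and 0.03 in SG3. The WT deviations were 0.12 for WT3, -0.10 for WT9 and 0.04 for WT11. WT3 was thus 1.16-fold above WT9 on average, while the highest and lowest SG lines differed 1.06-fold. The range of the WT lines was wider than that of the SG lines in 15 of 18 enzymes, and in 8 the SG lines all fell inside it. These lines were singled out after their values were seen, and the share of all genes tested with such orders was not counted. The library total was lowest in WT3 (49317925) and highest in WT9 (65457242), among WT lines the opposite order to the sterol enzymes. The SG lines followed that opposite order only in part. SG2 had the highest SG total (64434605) and the lowest SG deviation, but SG1 had the lowest SG total (54852998) and SG3 (58689254) the highest SG deviation. WT9 was also the WT line with Xist. The part of library total or of Xist status in the pattern among lines was not tested. Among the regulators, Insig1 was also highest in WT3 and had WT3 above WT11 above WT9, while Insig2 had a deviation of -0.08 in WT3. Srebf2 was lowest in WT9, as 11 of the enzymes were, but WT3 was below SG1, SG2 and WT11 in it, all within a 1.02-fold range.

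**Figure D3:**
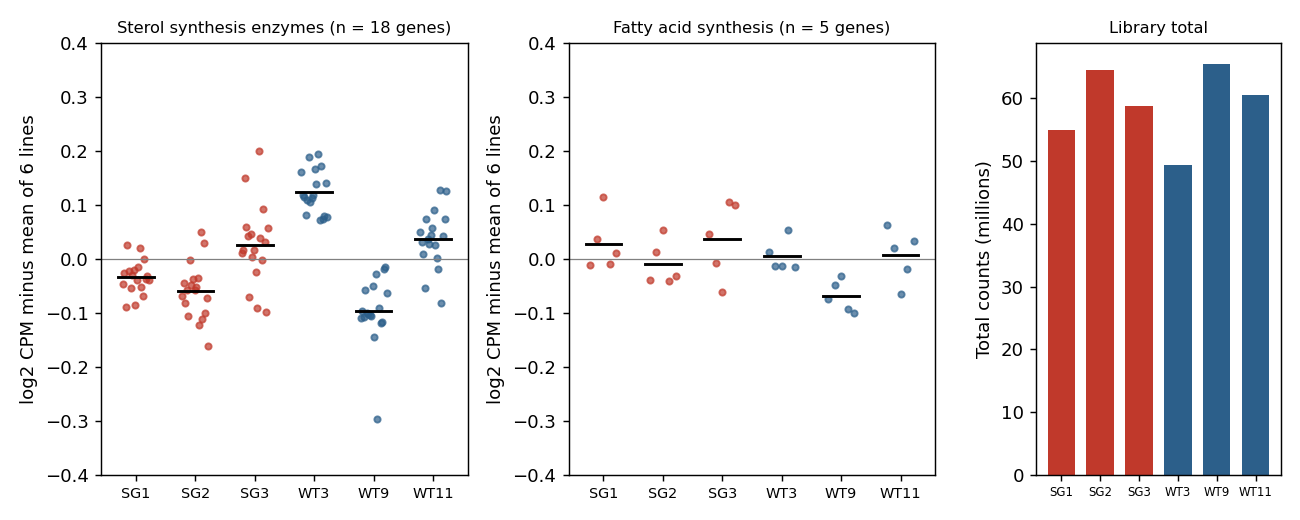
Log2 CPM minus its mean over the 6 lines, for the 18 sterol synthesis enzymes (left) and the 5 fatty acid synthesis genes (middle), with 1 point per gene and a bar at the mean of each line, and the total counts of each library (right), SG lines in red and WT lines in blue. The sterol enzymes are highest in WT3 (mean 0.12) and lowest in WT9 (mean -0.10), with the SG lines between them, and the library totals run the other way in these WT lines.

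Fatty acid synthesis genes varied little, with SDs within genotypes below the median of all genes tested in 5 of 5. Ranks of SD were not matched for level, and these genes had a median average log2 CPM of 8.86, against 3.92 for all genes tested. Fasn, the fatty acid synthase, was at 790.5, 757.7 and 699.0 CPM in SG lines, and at 722.9, 714.0 and 698.0 CPM in WT lines. SG1 and SG2 were above all WT lines and SG3 was among them, giving a log2 fold change of 0.07 (interval -0.04 to 0.19). Acaca, acetyl-CoA carboxylase and the committed step, was at 172.9, 170.0 and 167.7 CPM in SG lines, and at 167.0, 163.0 and 170.9 CPM in WT lines. Its lines overlapped within a 1.06-fold range, and its SD within genotypes was larger than that of 4.75% of genes tested. Scd1 was at 329.3, 322.3 and 356.8 CPM in SG lines, and at 343.9, 310.9 and 327.4 CPM in WT lines. Scd2 was at 1742, 1691 and 1851 CPM in SG lines, and at 1710, 1611 and 1769 CPM in WT lines. Both desaturases peaked in SG3 and were lowest in WT9, with log2 fold changes of 0.04 and 0.05. Acly had a log2 fold change of -0.0029 (interval -0.11 to 0.10). All 5 genes had intervals within 1.2-fold. Of the 4 adipocyte markers at 1 CPM or more in every line, none passed the threshold. Fabp4 averaged 3.18 CPM over SG lines and 7.80 CPM over WT lines (edgeR adjusted p = 0.053), and Lpl 30.4 CPM over SG lines and 49.2 CPM over WT lines (edgeR adjusted p = 0.128), both without overlap. Cebpa (log2 fold change -0.12) and Pparg (0.16) overlapped between genotypes. The sum of the 8 markers, most of it Lpl, was 31.7 to 48.8 CPM across SG lines and 54.5 to 68.6 CPM across WT lines. Their part in the lipid gene levels was not tested.

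Sterol transport had the largest spread among lines, with SDs within genotypes below the median of all genes tested in 0 of 3 genes. Their median average log2 CPM was 6.01, lower than that of the fatty acid synthesis genes. Stard4, a carrier of cholesterol between membranes and a target of SREBP-2, was at 97.0, 95.3 and 97.9 CPM in SG lines, and at 108.7, 82.4 and 125.6 CPM in WT lines. The SG lines were within a narrow band inside the spread of the WT lines, and the log2 fold change was -0.13 with an interval of -0.43 to 0.18. Npc1, which exports cholesterol from lysosomes, was at 67.4, 55.9 and 68.4 CPM in SG lines, and at 64.7, 61.3 and 67.5 CPM in WT lines. SG2 was lowest and the genotypes overlapped, with a log2 fold change of -0.01 (interval -0.20 to 0.17), or 0.08 without SG2.

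Abca1 (chromosome 4, 53030787 to 53159895), which loads cholesterol onto lipoproteins and is a classical LXR target, had the largest estimate and the largest spread of the 31 genes. It was at 7.76, 6.47 and 12.2 CPM in SG lines, and at 4.74, 6.74 and 3.56 CPM in WT lines. SG3 was highest and WT11 lowest, 3.42-fold apart, and the genotypes overlapped because WT9 was above SG2. The log2 fold change was 0.81 (SE 0.29, interval 0.14 to 1.48) and missed the threshold (edgeR adjusted p = 0.227). It passed with DESeq2 (adjusted p = 0.033) and in edgeR without a count filter (adjusted p = 0.0437), fits that called 5.81% and 3.33% of all genes, and in none of the other 12 alternatives. The estimate was 0.50 without SG3, 0.61 without WT11 and 1.09 without WT9. The 8 macrophage markers checked, 5 of them at 1 CPM or more in every line and none below 0.1 CPM in every line, were likewise all highest in SG3 and all lowest in WT11. They summed to 27.2, 30.7 and 63.5 CPM in SG lines, and to 33.9, 32.3 and 12.1 CPM in WT lines. Gm49368, on the same strand, overlaps 68.7% of the counted length of the marker Itgam, and antisense Hmgxb3 overlaps 17.8% of that of Csf1r. The counts of Itgam and Csf1r are therefore uncertain. Macrophages express Abca1, and the part of these markers in its level was not tested. In bulk RNA, more cells of a type and more RNA per cell cannot be told apart.

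**Figure D4:**
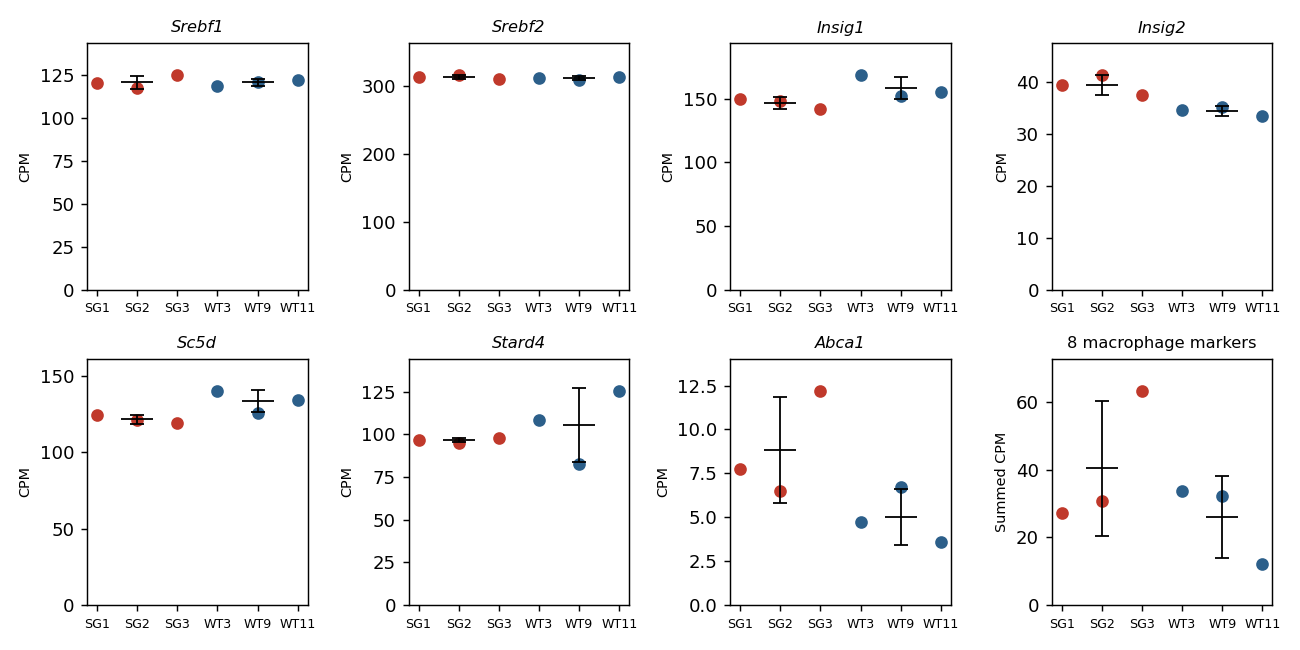
CPM per line for 7 of the genes and the summed CPM of 8 macrophage markers, with SG lines in red left of WT lines in blue, all axes starting at 0, and black bars for the mean and SD of 3 lines. Srebf1 and Srebf2 are level across lines, Insig2 is slightly above and Insig1 and Sc5d slightly below WT in SG lines, Stard4 spreads among WT lines, and Abca1 and the macrophage markers are both highest in SG3 and lowest in WT11.

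Genes of the same pathways outside the 31 were called at about the rate of all genes. In 6 lists with 65 genes, all tested, 0 were higher and 1 was lower in SG lines, against 0.809% and 1.10% of all genes tested. Mid1ip1 (X chromosome, 10715013 to 10719690), whose protein promotes the polymerisation of acetyl-CoA carboxylase, was at 91.3, 83.4 and 83.9 CPM in SG lines, and at 106.6, 99.8 and 105.6 CPM in WT lines. All SG lines were below all WT lines, and it fell to a ratio of 0.829 (log2 fold change -0.27, SE 0.05, edgeR adjusted p = 0.0391). The call was lost without SG2, SG3, WT3 or WT11 (adjusted p = 0.0806 to 0.175) and with library totals as the only scaling (0.0501), and an antisense gene model overlaps 25.5% of its counted length. It was the single call among 18 genes of fatty acid activation, elongation and desaturation, whose median log2 fold change was -0.03. No call was made among 8 genes of SREBP processing and INSIG turnover (median 0.03), 9 of LXR and sterol export (0.02), 11 of uptake, lysosomes and esters (0.07), 11 of the isoprenoid branches (0.02) or 8 of oxysterol and sterol binding (-0.08).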

How the data were processed

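Gene-level mRNA counts of 6 fibroblast lines were used, 3 per genotype. The deposited counts are whole, unnormalised reads per gene. Per the submitters' processing notes, the authors trimmed reads with Trimmomatic 0.36, aligned them with STAR 2.5.2b to GRCm38 and counted them with featureCounts of Subread 1.5.2, and DESeq2 was among their tools. Annotation release, strand setting and treatment of multimapping reads could not be read from those notes or the file headers, which leaves overlapping and similar genes uncertain. The gene length used for CPM per kilobase is another deposited column, in bases.

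Symbols came from GENCODE M21. Counts were tested with edgeR 4.0.16 (R 4.3.3) on all genes kept by filterByExpr (16068), with TMM scaling and no covariate, SG over WT, 2-sided, Benjamini-Hochberg over all genes, threshold 0.05. SE is the log2 fold change over the square root of F, and intervals (95%) use it with the fit's total degrees of freedom. Log2 CPM used a prior count of 2. The fit was tested on simulated data with 50 genes changed at each fold. It called 8% of those changed 1.2-fold and 98% of those changed 1.5-fold, with 11 false among 164 calls. A lack of calls therefore says little about changes near 1.2-fold. The changed genes were drawn only from genes above a set average level. These rates do not cover Abca1 and Tm7sf2, whose averages were below that level. Alternatives were other scalings, no filter, DESeq2 1.42.0, a robust prior, leaving out lines and Xist status.

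All members are accounted for. Per-line values are given for called genes, genes without overlap, regulators, rate-setting enzymes, desaturases, Npc1, Abca1 and the 3 most variable members, and called genes of 6 pathway lists. Members and lists were chosen with earlier results of these data known. Replicates are embryos. The intervals rest on the spread between them after edgeR moderates it with information from all genes (7.70 total degrees of freedom). They are therefore not the spread of each gene alone, and can be narrower or wider than it.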

Additional observations from a re-analysis of the deposited data

How the results depend on the processing

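No paired analysis was possible because the genotypes share a single line number, 3, and nothing in the labels says that it marks a shared litter. Members called stayed at 0 lower in all 14 alternatives and at 0 higher in 12, with 1 higher (Abca1) with no count filter or with DESeq2. Those fits called 3.33% and 5.81% of all genes tested. All genes called were 959 with no count filter, 934 with DESeq2 and 703 without both Xist lines, against 306, and 3 to 579 when 1 line was left out (3 without SG2, 24 without WT3, 29 without WT11, 460 without WT9, 579 without SG1). Pathway list genes called were 0 with library totals alone and 0 to 1 when 1 line was left out. The median log2 fold change of the members stayed between -0.07 and 0.00 and moved by less than the median SE of a member.

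Signs turned only in members with estimates between -0.13 and 0.06, none of them called. With upper quartile scaling Mvk came to 5.49e-05 and Acly to 0.0073, with library totals Srebf1 to -0.0049, and without both Xist lines Pmvk to -0.014, Tm7sf2 to -0.053, Srebf2 to -0.00089 and Acaca to -0.00099. With 1 line left out, log2 fold changes ran from -0.093 to 0.046 for Mvk, -0.040 to 0.030 for Acly, -0.065 to 0.076 for Npc1, -0.0065 to 0.066 for Pmvk, -0.062 to 0.18 for Tm7sf2, -0.022 to 0.024 for Srebf1, -0.0069 to 0.076 for Scd1, -0.094 to 0.015 for Hmgcs1, -0.077 to 0.028 for Fdps, -0.097 to 0.012 for Fdft1, -0.014 to 0.069 for Msmo1, -0.048 to 0.0055 for Scap and -0.28 to 0.020 for Stard4. The cause was not tested. Abca1 and Tm7sf2, the members of lowest CPM, have the widest intervals.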
